A study of Mus musculus with 58 samples.

Results

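The genes of the proteasome were followed in the prefrontal cortex of young mice that had been given fluoxetine or lithium through their mothers' milk. They were taken as the genes with symbols beginning Psma, Psmb, Psmc, Psmd, Psme, Psmf or Psmg and ending in a number, and whose normalised count averaged 10 or more over the 58 libraries. Of 48 matching symbols 46 met that level (the proteasome genes or members below), out of 16669 genes that did so in the whole table of 18088, and Psma8 and Psmb11, with means of 9.66 and 5.34, did not. The 46 were 17 subunits of the 20S core, 17 of the 19S regulatory particle, the 3 subunits of the 11S activators, and 9 others: 7 assembly chaperones, the activator PA200 (Psme4) and the inhibitor PI31 (Psmf1).

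The proteasome is the main machine by which cells break down proteins marked with ubiquitin. Its 20S core is a barrel of stacked alpha and beta rings, and the beta subunits Psmb5, Psmb6 and Psmb7 carry the cutting sites. Interferon replaces these 3 by Psmb8, Psmb9 and Psmb10, which gives the immunoproteasome. The 19S particle binds, unfolds and feeds in the ubiquitinated substrate, whereas the 11S activators (Psme1 with Psme2, or Psme3 alone) and PA200 open the core without need of ubiquitin. In neurons the proteasome takes part in the turnover of synaptic proteins.

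All mice were of the C57BL/6J strain, and were labelled heterozygous for Kmt5b (HT), a gene that encodes a histone H4 lysine methyltransferase, or wild-type (WT). Pups received vehicle, the serotonin reuptake inhibitor fluoxetine, or lithium from postnatal day 3 to 24, for 3 weeks, and tissue was taken on postnatal day 25. Each genotype and treatment had 5 females and 5 males, except that WT mice on lithium were 4 females and 4 males. No litter and no dose were given, the labels do not describe the Kmt5b allele, and p-values measure only the spread between these libraries. Kmt5b itself had a mean normalised count of 1734 ± 98.3 (SD, n = 30) in HT and 1654 ± 137 (SD, n = 28) in WT libraries, so that it was not lower in HT. HT and WT below are the genotypes as labelled, and the direction of each comparison between them rests on those labels.

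Depth was 23.5 to 38.6 M reads per library, which put the least abundant member, Psmb9, at 11 to 37 reads and Psmb8 at 29 to 89. Markers of cortical excitatory neurons were present in every library (Slc17a7 at 33553 to 55883), and the dissections differed. The summed level of 4 olfactory bulb markers ran from 95.8 to 10513. In 10 libraries the bulb level lay more than 3 scaled median deviations below the median (3 of HT fluoxetine, 3 of HT lithium, 3 of WT vehicle, 1 of WT fluoxetine and none of HT vehicle). Libraries also differed in how the level of long genes stood to that of short ones, measured as a slope on log2 exon length, and 1 HT vehicle female library stood apart in it. The slope averaged -0.02 ± 0.03 (SD, n = 10) in HT vehicle, -0.00 ± 0.03 (n = 10) in HT fluoxetine and 0.01 ± 0.02 (n = 10) in HT lithium libraries. Members are short genes, with a median of 2814 exonic bases against 4196 for all genes tested. Results that rest on these libraries are given below with and without them.

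Per kilobase of exon the proteasome genes spanned from 5.75 for Psmb9 to 2360 for Psmc5, an ATPase of the 19S base. Constitutive subunits of the core and of the 19S particle had like medians, with a wide range within each role. The medians per kilobase were 694 for the 7 alpha subunits, 965 for the 7 constitutive beta subunits, 1070 for the 6 ATPases, 719 for the 3 other base subunits and 615 for the 8 lid subunits. Psmb5, the chymotrypsin-like site, was second at 1861 ± 187 (SD, n = 58), and Psmc1, Psma6 and Psmd2 followed at 1505, 1492 and 1350. Psmc1 and Psma6 differed by less than the SD of either. Of the 19S subunits Psmd11, a lid subunit, was lowest at 271. The assembly chaperones lay below every constitutive subunit of the core and the 19S particle. The 4 chaperones of the 20S core, Psmg1 to Psmg4, had levels of 71.0 to 169 per kilobase, and the chaperones of the 19S base, Psmd5, Psmd9 and Psmd10, of 90.5 to 201. The 11S activators were unequal: Psme3, which forms the nuclear complex on its own, stood at 973, Psme1 at 319 and Psme2 at 165. Psme4 stood at 233 and Psmf1 at 140. With the longest transcript in place of all exons the median over the 46 members was 976 in place of 599.9. The upper places then changed, Psmb6 and Psma4 following Psmc5 at 1916 and 1875 with Psmb5 next at 1861, and Psmb8 and Psmb9 still held the 2 lowest places.

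**Figure D1:**
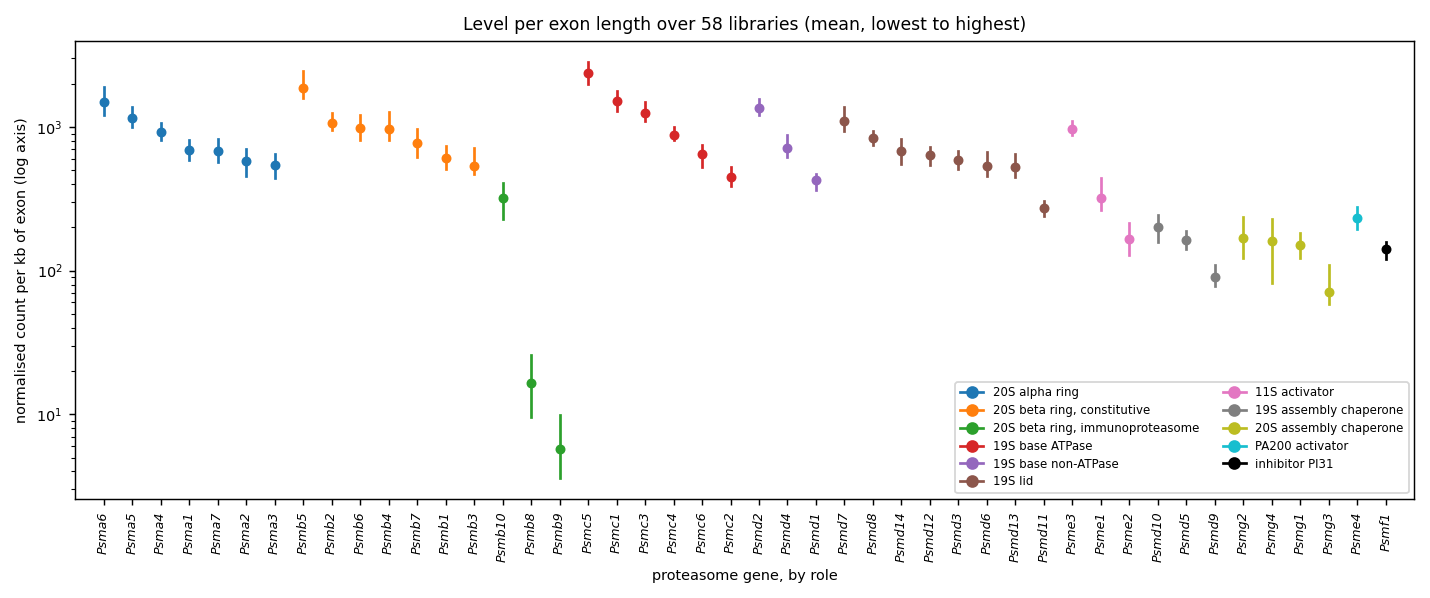
Level of each of the 46 proteasome genes as normalised count per kilobase of exon (log axis), grouped and coloured by role; points are means over 58 libraries and bars run from the lowest to the highest library. Psmb8 and Psmb9 sit at 16.6 and 5.75, far below Psmb10 at 321 and the constitutive subunits.

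The 3 immunoproteasome subunits did not share a level. On the scale per kilobase, Psmb8 made up 0.885% ± 0.18 (SD, n = 58) of the sum of Psmb8 and Psmb5, whose place it takes. Psmb9 made up 0.582% ± 0.148 of the sum of Psmb9 and Psmb6. Psmb10 made up 29.3% ± 2.12 of the sum of Psmb10 and Psmb7. Psmb8 and Psmb9 thus had little of their place in the transcript pool, and Psmb10 had a sizeable share. In the 6 groups of genotype and treatment the share of Psmb8 averaged 0.759% to 0.93%, that of Psmb9 0.533% to 0.629% and that of Psmb10 28.04% to 30.6%, and the groups overlapped for each. The longest transcript gave 1.56%, 0.382% and 30.9%. Transcript shares are not shares of assembled particles.

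Lithium in HT mice gave the largest change in any member. Psme1 encodes the alpha subunit of the 11S activator (PA28), induced by interferon gamma. Its normalised count was 721, 763 and 977 (lowest, median and highest of 10) in HT vehicle and 584, 618 and 697 in HT lithium libraries. The highest lithium library lay below the lowest vehicle library, so that the groups did not overlap. The share of all genes without overlap in this comparison was not counted. The log2 difference was -0.33 ± 0.05 (SE), or 20.6% lower, with adjusted p = 3.18e-06 in limma over all genes. It was -0.36 in females and -0.31 in males. Leaving out any one library gave between -0.36 and -0.30, and the call held in all 16 other settings tried (highest adjusted p = 0.00022).

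Psme2, the partner of Psme1 in the same ring, also fell, by less. Its normalised count was 265, 317 and 379 in HT vehicle and 252, 274 and 308 in HT lithium libraries. Every lithium library lay below the vehicle median, but the groups overlapped. It fell by 0.20 ± 0.06 (SE) on the log2 scale, with adjusted p = 0.0279 in limma. The call was lost without 6 of the 20 single libraries and in 6 of the 16 other settings. With the length slope in the fit the value was -0.13 (adjusted p = 0.161), and over all settings it came down to -0.08. Psme3, the nuclear relative, had -0.04 ± 0.03 and adjusted p = 0.321. Psme1 and Psme2 lie tail to tail on chromosome 14 (GRCm38, 55578123 to 55581529 on the plus and 55587441 to 55591113 on the minus strand), 5912 bases apart.

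**Figure D2:**
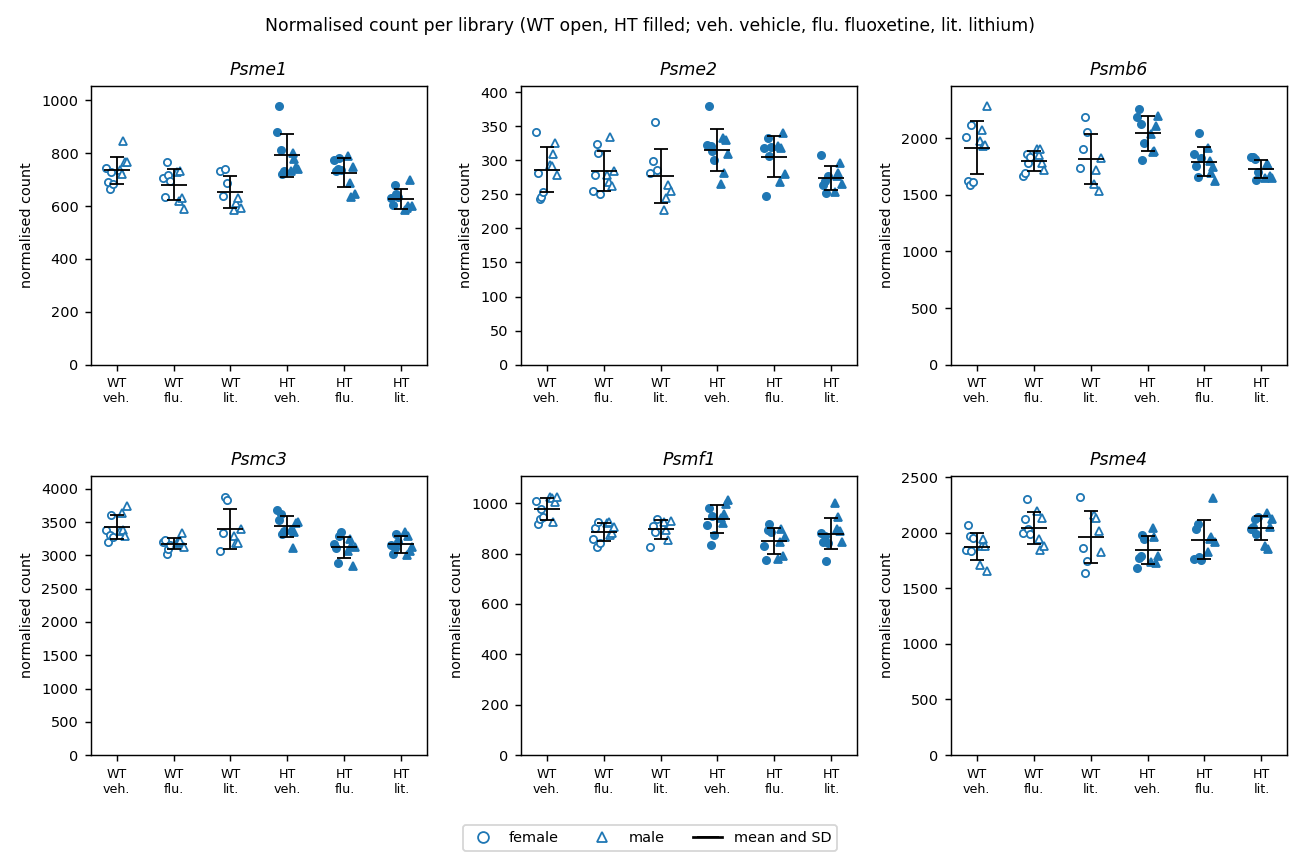
Normalised count of 6 proteasome genes in each of the 58 libraries (circles females, triangles males; open WT, filled HT), with mean and SD for each genotype and treatment. HT lithium libraries of Psme1 lie between 584 and 697, all below the HT vehicle libraries at 721 to 977, whereas the groups overlap for the 5 other genes.

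The 20S core, with 17 subunits, gave 2 calls under lithium in HT mice, both lower, against 6.61% of all genes lower. They were 2 of the 3 constitutive catalytic subunits. Psmb6, the caspase-like site, had 1805, 2071 and 2261 in HT vehicle and 1634, 1733 and 1831 in HT lithium libraries. All 10 lithium libraries lay below the vehicle median, with a small overlap. It fell by 0.24 ± 0.05 (SE) on the log2 scale, with adjusted p = 0.000718 in limma, and the call held in all 16 other settings and without any one library. The size depended on the length slope: with it in the fit the difference was -0.15 (adjusted p = 0.00669), and with the olfactory bulb level as well -0.13 (adjusted p = 0.0195). Psmb5 had 1624, 1797 and 2030 in HT vehicle and 1467, 1594 and 1795 in HT lithium libraries. All 10 lithium values again lay under the vehicle median, and the ranges overlapped. The log2 difference of -0.15 ± 0.05 passed at adjusted p = 0.0447, and the call was lost without 13 of the 20 single libraries and in 9 of the 16 other settings, the value being -0.06 with the length slope in the fit. Psmb7, the trypsin-like site, had 0.04 ± 0.05 (adjusted p = 0.68), and 0.14 (adjusted p = 0.0105) with the length slope in the fit. No alpha subunit passed.

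The 19S particle, with 17 subunits, gave 2 calls under lithium in HT mice, against 6.61% of all genes lower. Both were lower and in the base. Psmc3, an ATPase, had 3114, 3434 and 3678 in HT vehicle and 3003, 3140 and 3348 in HT lithium libraries. All lithium libraries lay below the vehicle median, and the ranges overlapped. It fell by 0.12 ± 0.03 (SE) on the log2 scale, adjusted p = 0.0148 in limma. Psmd4, a ubiquitin receptor, fell by 0.11 on the log2 scale (adjusted p = 0.0256), a call lost without 3 of 20 single libraries. None of the 8 lid subunits passed, Psmd14, the deubiquitinase of the lid, among them at -0.08 ± 0.05 (adjusted p = 0.337). In 2 other settings of limma the lid subunit Psmd3 was called lower. It had -0.10 with quantile normalisation (adjusted p = 0.0138) and -0.10 with olfactory bulb level as covariate (adjusted p = 0.0124).

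PA200, encoded by Psme4, was the one member called higher. It had 1683, 1792 and 2038 in HT vehicle and 1851, 2049 and 2173 in HT lithium libraries. All 10 lithium libraries stood above the vehicle median, with overlap. The log2 difference was 0.15 ± 0.05 (SE) with adjusted p = 0.0349 in limma. The call was lost without 11 of 20 single libraries, and with the length slope in the fit the difference was 0.07 (adjusted p = 0.31).

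In all, lithium in HT mice left 6 of 46 members lower and 1 higher, against 6.61% of all genes lower and 7.46% higher. Of the 46, 38 had a difference below 0, as did 50.5% of all genes, and the median was -0.07 against -0.00. The count moved with the libraries and covariates used. With the length slope in the fit 2 were lower (Psme1 and Psmb6) and 2 higher, which were Psma3 (0.18, adjusted p = 0.0026) and Psmb7 in place of Psme4. Without the libraries low in olfactory bulb level 6 were lower and 1 higher, with Psmb5 and Psme2 lost and Psmf1 and Psmg1 gained, and without the vehicle library that stood apart in the slope 5 were lower and 0 higher. On the 54 libraries whose whole reads could be recovered, which drop 3 HT vehicle and 1 HT lithium library, limma, edgeR and DESeq2 each called Psme1 and Psmb6 alone. Without HT lithium female 1 the count was 11, without HT lithium female 5 or HT lithium male 5 it was 4, and without HT vehicle male 4 it was 3.

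In WT mice lithium gave 2 lower members, Psme1 and Psmf1, and none higher, against 1.39% of all genes lower and 1.95% higher. Group means of uncalled members went both ways. Psmd2 averaged 5635 in WT lithium and 5544 in WT vehicle libraries, and Psmb6 averaged 1817 and 1913. Psme1 had 666, 733 and 848 in WT vehicle (n = 10) and 586, 634 and 740 in WT lithium libraries (n = 8), with overlap. The log2 difference was -0.17 ± 0.05 (SE), adjusted p = 0.0349 in limma. The 4 WT lithium males had 585.9, 611.9, 629.5 and 593.7 against 721.5 to 848.0 in the 5 WT vehicle males, with a log2 difference of -0.34. How many of all genes stand as far apart in so few libraries was not counted. In HT mice the differences were -0.36 in females and -0.31 in males. The 4 WT lithium females had 637.8 to 740.1 against 665.6 to 743.8 in vehicle females, with a log2 difference of -0.01. Whether the sexes differed was not tested. Psmf1, the inhibitor PI31, had 919, 990 and 1026 in WT vehicle and 828, 902 and 939 in WT lithium libraries, a log2 difference of -0.13 ± 0.04 (adjusted p = 0.0403 in limma). All 8 lithium values lay under the vehicle median. Without the libraries low in olfactory bulb level the differences were -0.19 for Psme1 (adjusted p = 0.0561) and -0.12 for Psmf1 (adjusted p = 0.0999), no longer called, and the count was 1 or 0 without 16 of 18 single libraries.

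**Figure D3:**
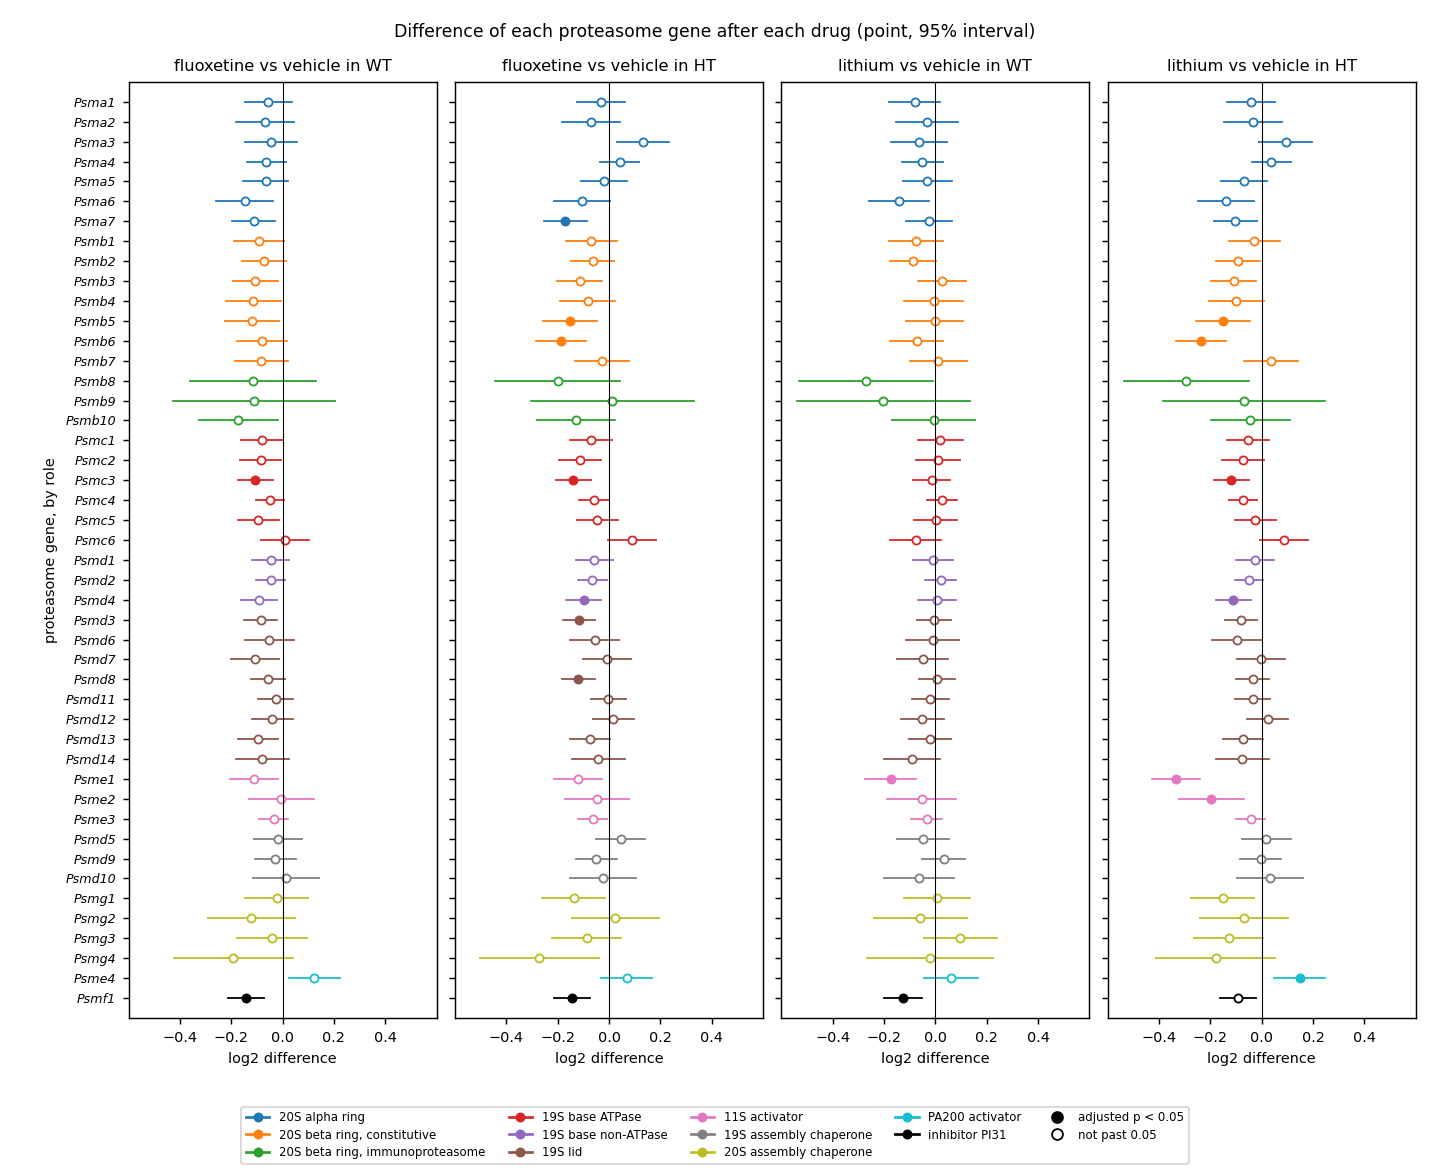
Log2 difference of each of the 46 proteasome genes in the 4 comparisons of a drug with vehicle, with 95% intervals; filled points passed adjusted p under 0.05 over all genes. Psme1 under lithium in HT mice, at -0.33, is farthest from 0 among the filled points, and Psme4 at 0.15 is the only filled point above 0.

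Fluoxetine in HT mice lowered 8 members and raised none, against 5.96% of all genes lower and 6.84% higher, and it did so across the core and the 19S particle. In the 20S core these were Psmb6, Psmb5 and Psma7, an alpha subunit. Psmb6 had 1805, 2071 and 2261 in HT vehicle and 1620, 1779 and 2049 in HT fluoxetine libraries. All 10 fluoxetine libraries lay below the vehicle median and the ranges overlapped. It fell by 0.19 ± 0.05 (SE) on the log2 scale, adjusted p = 0.00795 in limma. Psmb5 had 1433, 1629 and 1830 in HT fluoxetine libraries against 1624, 1797 and 2030 in HT vehicle. Psma7 had 2050, 2178 and 2529 in HT vehicle and 1819, 2020 and 2176 in HT fluoxetine libraries, again with every fluoxetine library under the vehicle median. Its log2 difference was -0.17 ± 0.04, adjusted p = 0.00589.

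The 19S calls under fluoxetine in HT mice were Psmc3 and Psmd4 of the base and Psmd3 and Psmd8 of the lid. Psmc3 had 2847, 3134 and 3350 in HT fluoxetine libraries against 3114, 3434 and 3678 in HT vehicle. All fluoxetine libraries lay below the vehicle median, and the log2 difference of -0.14 ± 0.03 (SE) had adjusted p = 0.00535 in limma. This call held in all 16 other settings and without any one library. Psmd3 and Psmd8 each fell by 0.12 on the log2 scale (adjusted p = 0.0115 and 0.0119). Psmd4 at -0.10 and Psmb5 at -0.15 were the weakest, and each lost its call without 11 of 20 single libraries.

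Psmf1 fell with fluoxetine in both genotypes. It had 833, 945 and 1012 in HT vehicle and 776, 857 and 917 in HT fluoxetine libraries, all 10 of these under the vehicle median. The log2 difference was -0.14 ± 0.03 (SE), adjusted p = 0.00482 in limma. In WT mice it had 919, 990 and 1026 under vehicle and 828, 892 and 927 under fluoxetine, with a small overlap and every fluoxetine value below the vehicle median. The log2 difference there was -0.14 ± 0.03 as well, adjusted p = 0.00818. Under lithium in HT mice the value was -0.09 ± 0.03 with adjusted p = 0.0598.

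The fluoxetine calls in HT mice were also sensitive to the libraries and covariates used. On the 54 libraries limma and DESeq2 called Psmc3 and Psmf1 lower and edgeR called Psmc3 alone. Psma3, an alpha subunit, was called higher there, with adjusted p = 0.0468 in limma, 0.0402 in edgeR and 0.0315 in DESeq2. With all libraries and no covariate Psma3 had 0.13 ± 0.05 and adjusted p = 0.0754. With the length slope in the fit it was called higher (0.18, adjusted p = 0.00134 in limma), and 6 members were lower. It was also called higher with the slope and the olfactory bulb level both in the fit (0.19, adjusted p = 0.000663). Without the 10 libraries low in olfactory bulb level 8 members were lower, and with that level as a covariate 14 were. Values of 38 of the 46 lay below 0, as did those of 50.9% of all genes, with a median of -0.06.

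In WT mice fluoxetine lowered Psmf1 and Psmc3 and raised none, against 3.41% of all genes lower and 3.98% higher. Psmc3 had 3208, 3372 and 3749 under vehicle and 3029, 3194 and 3337 under fluoxetine. Every fluoxetine library lay below the vehicle median, with overlap, and the log2 difference was -0.11 ± 0.03 (SE), adjusted p = 0.0443 in limma. That call was lost without 11 of 20 single libraries, and 4 members were called without WT vehicle female 3. The differences were small and one-sided: 43 of the 46 lay below 0, as did 50.3% of all genes, with a median of -0.08 and a range of -0.19 to 0.12. All 17 subunits of the 20S core lay below 0. The slope on exon length averaged -0.01 ± 0.04 in WT vehicle and 0.02 ± 0.02 in WT fluoxetine libraries (SD, n = 10 each), and with it in the fit 0 members passed in limma. Over the 46 members the differences rose with exon length (r = 0.44 over genes, which are not independent), and the longest, Psme4 with 8382 exonic bases, had the largest, at 0.12 ± 0.05 (adjusted p = 0.108). The same correlation was 0.37 with fluoxetine and 0.41 with lithium in HT mice, and 0.06 with lithium in WT mice.

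The 2 drug comparisons within a genotype share the same vehicle libraries, so their values are related. Compared with each other directly, lithium left Psme1 lower than fluoxetine did in HT mice, at 727 ± 54.2 under fluoxetine and 627 ± 37.9 under lithium (SD, n = 10 each). The log2 difference was -0.21 ± 0.05 (SE), adjusted p = 0.00241 in limma, and all 10 lithium libraries lay below the fluoxetine median. It was the 1 member called lower, with none higher, against 3.27% and 3.52% of all genes. The call held in all 16 other settings. In WT mice none of the 46 passed between the drugs, against 4.21% of all genes in either direction, and the smallest adjusted p was 0.0883 for Psmb3 at 0.13 ± 0.05. There 11 members had an unadjusted p under 0.05, edgeR and DESeq2 also called 0, and 11 members were called higher when WT lithium female 1 was left out.

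Genotype gave no called member. Between HT and WT under vehicle 0 of 46 passed in limma (0.048% of all genes), with 6 at an unadjusted p under 0.05. The smallest p-values were of Psmc6, an ATPase, at -0.11 ± 0.05, Psme2 at 0.14 ± 0.06 and Psme1 at 0.10 ± 0.05 (adjusted p = 0.341, 0.345 and 0.348). Under fluoxetine 0 passed (0.612% of all genes), with 1 at an unadjusted p under 0.05, Psme1 at 0.09 ± 0.05. Under lithium 0 passed (0.06% of all genes), with 6 unadjusted, and Psmd4 came first at -0.12 ± 0.04 (adjusted p = 0.22). Averaged over treatments 0 passed (0.468% of all genes), with 4 unadjusted, and Psmf1 came first at -0.05 ± 0.02 (adjusted p = 0.294). edgeR and DESeq2 also called 0 in each of these 4.

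Drug effects were not shown to differ between genotypes. In the interaction of genotype with lithium 0 members passed (0% of all genes), with 9 unadjusted, and Psme1 had a difference of differences of -0.16 ± 0.07 (adjusted p = 0.288). In that with fluoxetine 0 passed (0.042% of all genes), with 1 unadjusted, Psma3 at 0.18 ± 0.07 (adjusted p = 0.353). Between males and females 0 passed (0.132% of all genes), with 9 unadjusted, led by Psme1 at -0.07 ± 0.03 in males (adjusted p = 0.425). edgeR and DESeq2 called 0 in these 3 as well.

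Over the 4 comparisons of a drug with vehicle, 11 of the 46 members were called at least once, 6 at least 2 times and 2 of them (Psmc3 and Psmf1) 3 times. Of all genes 26.7% were called at least once, 8.56% at least 2 times and 1.97% at least 3 times, so that the first of these counts lies near the background. Repeated calls within a genotype rest on the same vehicle libraries. The 19 calls ran in size from 6.65% to 20.6%. Among those not called in any of the 4 were the assembly chaperones. Psmg4 had -0.27 ± 0.12 under fluoxetine in HT mice (adjusted p = 0.108), and Psmg1 had -0.15 ± 0.06 under lithium in HT mice (adjusted p = 0.0782). With the olfactory bulb level in the fit Psmg1 was called with both drugs in HT mice, at -0.16 with fluoxetine (adjusted p = 0.0488) and -0.17 with lithium (adjusted p = 0.0406), and without the libraries low in that level with lithium at -0.21 (adjusted p = 0.0242). Psmg2 and Psmg3 ran from -0.13 to 0.10 over the 4 comparisons, and Psmd5, Psmd9 and Psmd10 from -0.06 to 0.05. The immunoproteasome subunits were not called either, except that with the olfactory bulb level in the fit Psmb10 was called with fluoxetine in HT mice (-0.20, adjusted p = 0.0263). Psmb8 had 46.04, 62.0 and 83.5 in HT vehicle and 39.3, 54.03 and 74.2 in HT lithium libraries, with wide overlap. Its log2 difference was -0.29 with a 95% interval of -0.54 to -0.05 (adjusted p = 0.0939). The interval for Psmb9 was -0.39 to 0.25 and that for Psmb10 -0.20 to 0.11, so changes of the size seen for Psme1 were not detectable for Psmb9 at 11 to 37 reads.

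Genes that work with the proteasome were examined in the same fit, from lists chosen with earlier results of these data known. In the list of 18 ubiquitin genes, shuttles and parts of the segregase that extracts substrates, 7 fell and none rose with lithium in HT mice, where the median was -0.09 and 6.61% of all genes fell and 7.46% rose. Among them were Nub1 (-0.17 ± 0.03), which brings NEDD8-linked substrates to the proteasome, Sqstm1 (-0.13 ± 0.04), an autophagy receptor, Ubb (-0.13 ± 0.03), a polyubiquitin gene, Uba1 (-0.10 ± 0.03), the main activating enzyme, and Vcp (-0.08 ± 0.02), the segregase ATPase. The adjusted p-values of these 5 in limma ran from 4.83e-05 for Nub1 to 0.0205 for Vcp. Ubb had 35628, 38265 and 39600 in HT vehicle and 33497, 34621 and 36405 in HT lithium libraries, which overlapped by little. With fluoxetine in HT mice 4 fell and 1 rose, against 5.96% and 6.84% of all genes. Among those that fell were Uba1 (-0.11 ± 0.03), Ubb (-0.13 ± 0.03) and Nub1 (-0.11 ± 0.03), and Ufd1, a cofactor of Vcp, rose (0.16 ± 0.04, adjusted p = 0.00226 in limma). In WT mice fluoxetine lowered 2, of which Ubb was 1 (-0.12 ± 0.03), and lithium lowered Nub1 (-0.13 ± 0.03) and Ufd1 (-0.14 ± 0.04). Of all genes 3.41% were lower with fluoxetine and 1.39% with lithium in WT mice.

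Of 13 measured parts and partners outside the symbol rule, 1 passed in each drug comparison in HT mice, a share near that of all genes called lower (5.96% with fluoxetine and 6.61% with lithium). It was Adrm1, a ubiquitin receptor of the 19S base, at -0.16 ± 0.04 under fluoxetine (adjusted p = 0.00508) and -0.12 ± 0.04 under lithium (adjusted p = 0.0328). None passed in WT mice in limma. Of 12 genes of transcriptional control, 2 rose and 2 fell with lithium in HT mice, against 7.46% and 6.61% of all genes. Maff (0.39 ± 0.13) and Mafk (0.26 ± 0.08), small partners of Nfe2l1 and Nfe2l2, rose. Nfya (-0.20 ± 0.06) and Keap1 (-0.12 ± 0.04), the repressor of Nfe2l2, fell. Maff also rose with lithium in WT mice (0.70 ± 0.13, adjusted p = 0.000773), where Nfyb fell (-0.19 ± 0.05), against 1.95% of all genes higher and 1.39% lower. Fluoxetine in HT mice lowered Keap1 (-0.13 ± 0.04) and raised Tardbp (0.14 ± 0.04). That is 1 of the 12 each way, near the 5.96% lower and 6.84% higher of all genes. Nfe2l1, the factor known for raising proteasome genes when the proteasome is inhibited, passed in none of the 4. Of 8 targets of Nfe2l2, lithium in HT mice raised Hmox1 (0.28 ± 0.09) and Srxn1 (0.12 ± 0.04), against 7.46% of all genes, and none passed in the other 3.

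Genes of interferon signalling and antigen presentation bear on Psme1, Psme2 and the immunoproteasome. Of 18 measured, 4 fell with lithium in HT mice and none rose, with a median of -0.13, against 6.61% and 7.46% of all genes. Among these were Tap2 (-0.23 ± 0.07, adjusted p = 0.024 in limma), Irf1 (-0.22 ± 0.07) and Tap1 (-0.31 ± 0.10). Irf1 is a transcription factor of the interferon response, and Tap1 and Tap2 carry peptides into the endoplasmic reticulum. Tap2 had 137, 150 and 170 in HT vehicle and 108, 129 and 141 in HT lithium libraries, with a small overlap. With lithium in WT mice 1 of the 18, Gbp3, fell (-0.37 ± 0.10), against 1.39% of all genes. With fluoxetine none of the 18 passed in either genotype.

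Markers of cell types moved in the same comparisons. With lithium in HT mice 6 of 15 endothelial and mural markers fell and 1 rose, against 6.61% and 7.46% of all genes. Of the 15 values 8 lay below 0 and 7 above. The summed level of the 15 was 13762 to 17618 in HT vehicle and 13865 to 15919 in HT lithium libraries. Sox10 and Olig2 of 15 oligodendrocyte markers fell, 1 of 12 astrocyte markers rose (Gjb6) and 1 fell (Sox9), and none of 15 microglial or 10 excitatory neuron markers passed in limma. The summed microglial level was 12616 to 15654 in HT vehicle and 13273 to 14480 in HT lithium libraries. With fluoxetine in HT mice 6 oligodendrocyte, 4 microglial, 4 endothelial and mural and 3 astrocyte markers rose, against 6.84% of all genes. All 15 oligodendrocyte, 13 of 15 microglial and 10 of 12 astrocyte values lay above 0. The endothelial and mural list was split, with 7 above 0 and 8 below. With fluoxetine in WT mice none of these rose. There 1 microglial, 2 endothelial and mural and 2 astrocyte markers fell, against 3.41% of all genes, and all 15 microglial and 14 of 15 endothelial and mural values lay below 0. With lithium in WT mice 2 astrocyte markers rose and 1 fell, against 1.95% and 1.39% of all genes. None of the microglial, oligodendrocyte or endothelial and mural markers passed there in limma. The summed oligodendrocyte level was 67226 to 144270 in HT vehicle and 87723 to 207153 in HT fluoxetine libraries. No marker of these lists was at 0 in a whole group. The part of these shifts in the proteasome values was not tested, and in bulk tissue fewer cells of a type and less RNA per cell cannot be told apart.

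Members varied together within groups. With group means taken out, the mean correlation over the 58 libraries was 0.59 among the 7 alpha subunits, 0.60 among the 7 constitutive beta subunits and 0.41 among the 17 subunits of the 19S particle, and 0.39 between the constitutive core and the 19S. Psmb4 and Psmb5 were the closest pair (0.87). The 3 immunoproteasome subunits shared little (mean 0.10), and Psmb10 went instead with Psmc5 (0.86). In the 11S group Psme1 and Psme2 went together (0.48, and 0.23 with the slope and the olfactory bulb level also taken out), and Psme3 with neither, the lowest pair at -0.32. Psme4 ran against the rest, with a mean of -0.37 over the 45 others (-0.12 with both taken out) and -0.82 with Psmc5. These correlations share the libraries and their length slope: 44 of the 46 members had a negative correlation with the slope, as did 51.0% of all genes, and Psme4 had the highest at 0.65. With the slope and the olfactory bulb level also taken out, the mean over all 1035 pairs went from 0.28 to 0.15, that of the alpha ring to 0.42, that of the constitutive beta ring to 0.31 and that of the 19S to 0.32.

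**Figure D4:**
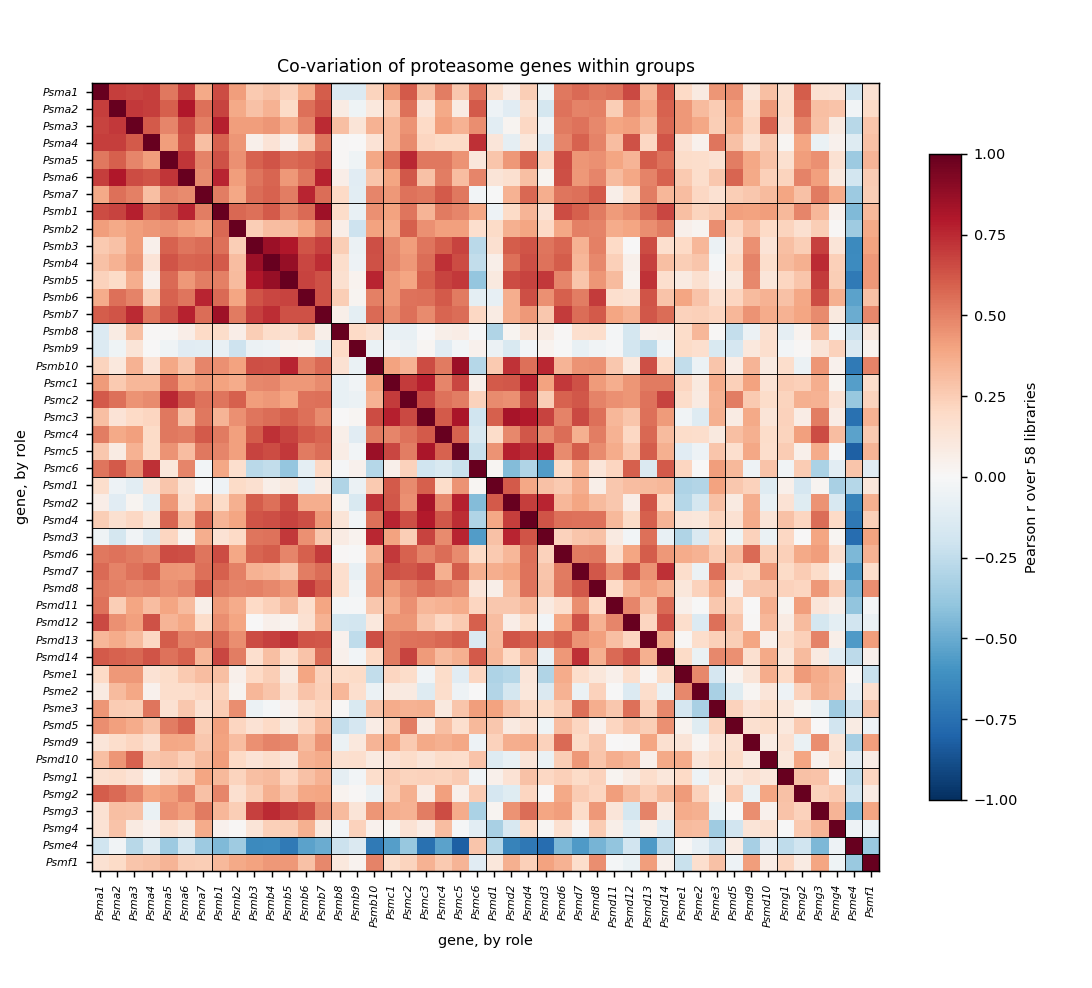
Pearson correlation of each pair of the 46 proteasome genes over 58 libraries after group means were taken out, ordered by role with lines between roles. The alpha and constitutive beta subunits form red blocks (mean 0.59 and 0.60), Psmb8 and Psmb9 are pale, and Psme4 is blue against most members (mean -0.37).

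The genes whose values went most closely with each immunoproteasome subunit, by the same correlation over 58 libraries, differed. For Psmb8 they were Ly6c1, Anxa3, Acadvl, Lgals9 and Hspa12b (0.59 to 0.55). For Psmb9 they were Papss2, Gm17690, Cyp2j9, Mt1 and Sox3 (0.56 to 0.48), where Psmb9 itself had 11 to 37 reads. For Psmb10 they included Arhgdig, Mtch1, Guk1 and Serp2 (0.90 to 0.89). Only group means were taken out here, and Psmb10 itself had -0.60 with the length slope and -0.52 with the olfactory bulb level. Within groups the spread was widest for Psmb9, Psmb8 and Psmg4, with residual SDs of 0.34, 0.27 and 0.26 on the log2 scale, and narrowest for Psmc4 at 0.06.

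Promoters were searched for all members that have one in the table, to describe the letters upstream of the genes called above. RefSeq (GRCm38.p6) gave 42 promoters for 39 of the 46 members, each of 250 bases before and 50 after the start. The called members Psmc3 and Psmd3 were among those without one. Every motif was sought on both strands. CCGGAAG, a core of ETS-family sites, was in 35.7% of the members' promoters and 8.86% of all 32851. GGGCGG, the GC box, was in 57.1% and 35.7%. GAAANNGAAA, the core of interferon-stimulated elements, was in 11.9% and 3.44%, and TTCNNNGAA, the STAT site, in 7.14% and 8.30%. The 5 members with GAAANNGAAA were Psmb3, Psmd4, Psmd9, Psme1 and Psmg4, and in Psme1 and Psmg4 it lay after the start. Psme2, Psmb8 and Psmb9 had no such match. TGACNNNGC, the core of the antioxidant element bound by Nfe2l1 and Nfe2l2 with small Maf proteins, was in 14.3% and 12.4%, and the 6 members that had it were Psmb5, Psmb6, Psmc6, Psmd9, Psmd12 and Psme4. CCAAT was in 31.0% and 37.4%, and TATAAA in 9.52% and 13.6%. A match is a description of letters and not a bound site. The stretches upstream of Psmb5 (chr14:54618023-54618142, minus strand) and Psmb6 (chr11:70525237-70525356, plus strand) are shown with TGACNNNGC in capitals. These are the 2 catalytic subunits called lower with both drugs in HT mice, against the same vehicle libraries. The stretches upstream of Psmd4 (chr3:95042615-95042739, minus strand) and Psme4 (chr11:30771609-30771728, plus strand) are shown with CCGGAAG in capitals. Psmd4 was also called lower with both drugs in HT mice, and Psme4 higher with lithium. Of these calls only that of Psmb6 with lithium held in all 16 other settings. Both motifs occur upstream of genes called in opposite directions, since Psme4 has both. All run 5′ to 3′ in the direction of the gene.
Psmb5: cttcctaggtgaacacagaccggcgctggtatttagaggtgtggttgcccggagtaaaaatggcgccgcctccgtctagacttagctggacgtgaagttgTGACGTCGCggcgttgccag
Psmb6: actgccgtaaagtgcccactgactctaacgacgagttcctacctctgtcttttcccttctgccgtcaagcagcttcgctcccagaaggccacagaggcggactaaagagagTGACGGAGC
Psmd4: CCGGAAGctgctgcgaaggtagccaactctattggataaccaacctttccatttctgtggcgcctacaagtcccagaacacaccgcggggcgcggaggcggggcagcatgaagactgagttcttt
Psme4: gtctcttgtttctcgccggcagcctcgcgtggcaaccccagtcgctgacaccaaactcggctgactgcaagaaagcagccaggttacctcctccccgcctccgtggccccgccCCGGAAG

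In Psmb5 the match began 47 bases before the start and in Psmb6 9 bases before it. In Psmd4 CCGGAAG began 125 bases before the start and in Psme4 53 bases before it.

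Some members share sequence with other genes. Psmd11 has a 98.1% identical stretch over 52.5% of its transcript in A730017L22Rik, listed with a mean of 345. Psme2 has 99.4% identity over 82.5% of its transcript with Psme2b, listed at a mean of 6.62, so that reads of either could count for the other, and the value of Psme2 is less certain for it. Other near copies are annotated with up to 97.1% identity for Psmb3, 98.9% for Psmb5, 92.1% for Psmb6 and 90.3% for Psme1. No level is listed for these copies, and how the counting divided reads between them and the members is not given in the sources used here. Psma4, Psma5, Psmc1, Psmd2 and Psmd14 have annotated near copies as well, also without a listed level. Psma2 overlaps AW209491 on the same strand over 8943 bases, Psmd1 overlaps Gm21972 over 5515 and Psmg3 overlaps Gm26938 over 2816. These 3 partners are protein-coding, and strand does not separate such overlaps. The remaining overlaps lie mostly on the opposite strand, with some on the same strand, and the kit marks strand, per the labels.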

How the data were processed

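Stranded poly(A) RNA libraries of prefrontal cortex were analysed for 58 mice in 12 groups of genotype, treatment and sex, taken from the labels. The deposited table held 1 signal value per gene and library, which the low values show to be counts scaled by a single factor in each library; per the submitters' processing notes, Salmon 0.11.2, R 3.6.0, DESeq2 1.19.11 and GRCm38 were used. The annotation release is not given in the sources used here. Exon lengths and positions came from GENCODE for GRCm38. Values were whole multiples of 1 read (tolerance 0.01) in 54 of 58 libraries; for the other 4 this could not be settled. Depth was 23.5 to 38.6 M recovered reads, with a median of 27.6 M.

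Because the values are normalised, limma (3.58.1, R 4.3.3, with a variance trend) was run on log2(value + 1) and not a count test. It took the 16669 genes with a mean of at least 10, leaving out 1419, fitted 12 group means over all libraries, and averaged both sexes in each contrast. Fold changes are on the log2(value + 1) scale, which understates those of low genes. Adjusted p-values are by Benjamini-Hochberg over all genes, with a threshold of 0.05. edgeR 4.0.16 (quasi-likelihood) and DESeq2 1.42.0 were run on the recovered reads of 54 libraries as alternatives. Levels per kilobase use the union of exons. The scripts were tested on simulated data.

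The members, the gene lists and the markers were chosen with earlier results of these data known. Genes named are the members past the threshold in each comparison (where fewer than 3 passed, the 3 with the smallest p), the catalytic pairs, activators, inhibitor and chaperones, and up to 4 genes of each other list, extended here to others that passed. Some genes that this rule picks are left out of the text. No 2 libraries of a group agreed within sampling noise: over 112 pairs of the same group the ratio of their differences to counting noise was 2.91 to 55.7.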

Additional observations from a re-analysis of the deposited data

Results flagged for a closer look

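Values of the 11 called members and of Psmb8, Psmb9 and Psmb10 were examined for a single library far from the others, in each of the 6 groups of genotype and treatment. In 84 such sets 1 library stood apart, where chance alone gives about 1 in 20. Psmb10, the immunoproteasome subunit that replaces Psmb7, had a normalised count of 670.452 in WT fluoxetine male 2, against 518.673 in the next of the 10 libraries of that group and 388.472 in the lowest. The gap was 0.538 of the group's range, above the critical 0.466. The same library was 1 of the 10 low in olfactory bulb level. Psmb10 was called in no comparison with all libraries and no covariate, and with the olfactory bulb level in the fit it was called lower with fluoxetine in HT mice (-0.20, adjusted p = 0.0263 in limma).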

How the results depend on the processing

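Over the 16 other settings no called value of a member changed sign. Psme1 and Psmb6 with lithium in HT mice, Psme1 in lithium against fluoxetine in HT mice, and Psmc3 with fluoxetine in HT mice passed in all 16. Counts of called members moved by over 1.5 times as follows, where the cause was not tested. With fluoxetine in WT mice (2) the count was 1 with the replicate block, with olfactory bulb level as covariate, with limma on 54 libraries and without the libraries low in that level, and 0 with the length slope or both covariates. With fluoxetine in HT mice (8) it was 14 with olfactory bulb level as covariate, 3 with limma and DESeq2 and 2 with edgeR on 54 libraries. With lithium in WT mice (2) it was 1 with the replicate block, the olfactory bulb covariate or both covariates, and 0 with the length slope, with the compared groups alone and without the libraries low in olfactory bulb level. With lithium in HT mice (7) it was 11 with the olfactory bulb covariate, 4 with the length slope, and 2 with limma, edgeR and DESeq2 on 54 libraries. Between lithium and fluoxetine in HT mice (1) it was 3 with the length slope or both covariates. Between HT and WT averaged over treatments (0) it was 1 with both covariates. limma on the 54 libraries, both covariates together and the removal of libraries apart were chosen after seeing the data.

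Leaving out each library in turn gave 1 to 4 (fluoxetine in WT), 6 to 10 (fluoxetine in HT), 0 to 2 (lithium in WT), 3 to 11 (lithium in HT), 1 to 2 (lithium against fluoxetine in HT, 2 without HT fluoxetine female 4), 0 to 11 (the same in WT) and 0 to 2 (HT against WT under lithium, 2 without WT lithium female 1). Replicate numbers do not pair the libraries: the mean correlation of deviations was -0.01 over 140 pairs of the same number in different groups and 0.00 over 560 others, and 29 and 130 exceeded 0.1. The replicate block changed no count but those given above by over 1.5 times. The median level per kilobase was 976 with the longest transcript, and the mean correlation of members was 0.146 with both covariates taken out. Depth limits Psmb8 and Psmb9.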
